A study of Mus musculus with 12 samples.

Results

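The Bcl2 family sets whether the outer mitochondrial membrane stays closed or is opened during apoptosis. Its RNA was described here for 10 genes out of 13233 measured in hernia-associated fibroblasts (HAFs). The 10 genes were listed by name, with no threshold on a measured value, and all 10 were in the table. They fall into 3 roles. The 3 anti-apoptotic genes are Bcl2, Bcl2l1 (which encodes BCL-XL) and Mcl1, whose proteins hold the pore formers and their activators in check. The 3 effectors are Bax, Bak1 and Bok, which form pores in the membrane and let cytochrome c out. The 4 BH3-only genes are Bid, Bcl2l11 (which encodes BIM), Bbc3 (which encodes PUMA) and Bad, which sense stress and either bind the anti-apoptotic proteins or activate the effectors. The family is also regulated by phosphorylation, cleavage and protein turnover, which RNA-Seq does not measure, and the values per gene do not separate splice forms.

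HAFs were primary fibroblasts from the lower abdominal muscle (LAM) of male Arom hum mice, an FVB/N line that carries the human aromatase gene on a bacterial artificial chromosome and so makes estradiol (E2) from testosterone. The submitters' labels call the cells skeletal muscle fibroblasts. Each of 4 treatments was given for 48 h to 3 of the 12 samples. These were vehicle (DMSO with ethanol), E2 at 10 nM, fulvestrant at 100 nM, and both agents together at the same doses. All groups came from cells with the transgene and were kept in medium with charcoal-stripped serum, so no group lacks the transgene. Fulvestrant is an antagonist of the estrogen receptors that also lowers ESR1 protein. Replicates 1, 2 and 3 exist in each group, and the labels do not say whether they are separate mice or cultures, so p-values measure the spread between these samples, which may be technical.

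Multiplied by 1 factor per sample, the normalized counts came within 0.01 of whole numbers. Taken as reads, these numbers sum to 18827792 to 44040507 per sample, with at least 10 for each of the 13233 genes in each sample. All 7 fibroblast markers (Pdgfra, Pdgfrb, Col1a1, Col1a2, Dcn, Lum and Thy1) were in the table, and 0 of 7 myogenic and 0 of 4 adipocyte markers were. Of other markers, 1 of 6 endothelial (Tek), 3 of 6 immune (Cd68, Lyz2 and Cd14) and 2 of 4 mural genes (Myh11 and Notch3) were present. As a check of the treatments, Pgr, a gene that E2 induces through ESR1, was at 145, 268 and 304 normalized counts with E2, above the 13.0 to 104 of all other samples. Samples with the same replicate number shared their deviations from the group means. The correlation of these deviations over genes was 0.631 to 0.923 in the 18 such pairs. Differently numbered pairs were not examined, so a match of replicate 2 with 2 and of 3 with 3 was not tested. The replicate number was kept as a block in the limma fit of log2(normalized count + 1). Calls required both a fold change over 1.2 and a p under 0.05 after Benjamini-Hochberg adjustment over the 13233 genes. Replicate 1 stood apart from replicates 2 and 3, so values are given for each replicate number.

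Levels were compared between genes as normalized counts per kilobase of exon. Mcl1 had the highest level, with a median over the 12 samples of 2020 per kilobase, followed by Bax at 1438 and Bcl2l1 at 638. Bak1 was at 393, Bbc3 at 305 and Bad at 275. Bid at 117, Bcl2l11 at 103, Bcl2 at 72.9 and Bok at 60.8 were lowest. The ranges over the 12 samples overlapped for each pair of neighbours in this order except 2. The lowest Bax value was 988 and the highest Bcl2l1 value 962 per kilobase, and the lowest Bad value was 224 and the highest Bid value 142. The length used is that of all annotated exons, and Bcl2 and Bcl2l11 have the longest exon sequence of the 10 genes, 9157 and 8029 bases. For Bax, Bcl2l1 and Bak1 all 4 replicate 1 samples were below all 8 samples of replicates 2 and 3. For Bcl2l1 the 4 lay between 1802 and 2036 normalized counts and the 8 between 2803 and 4413.

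**Figure D1:**
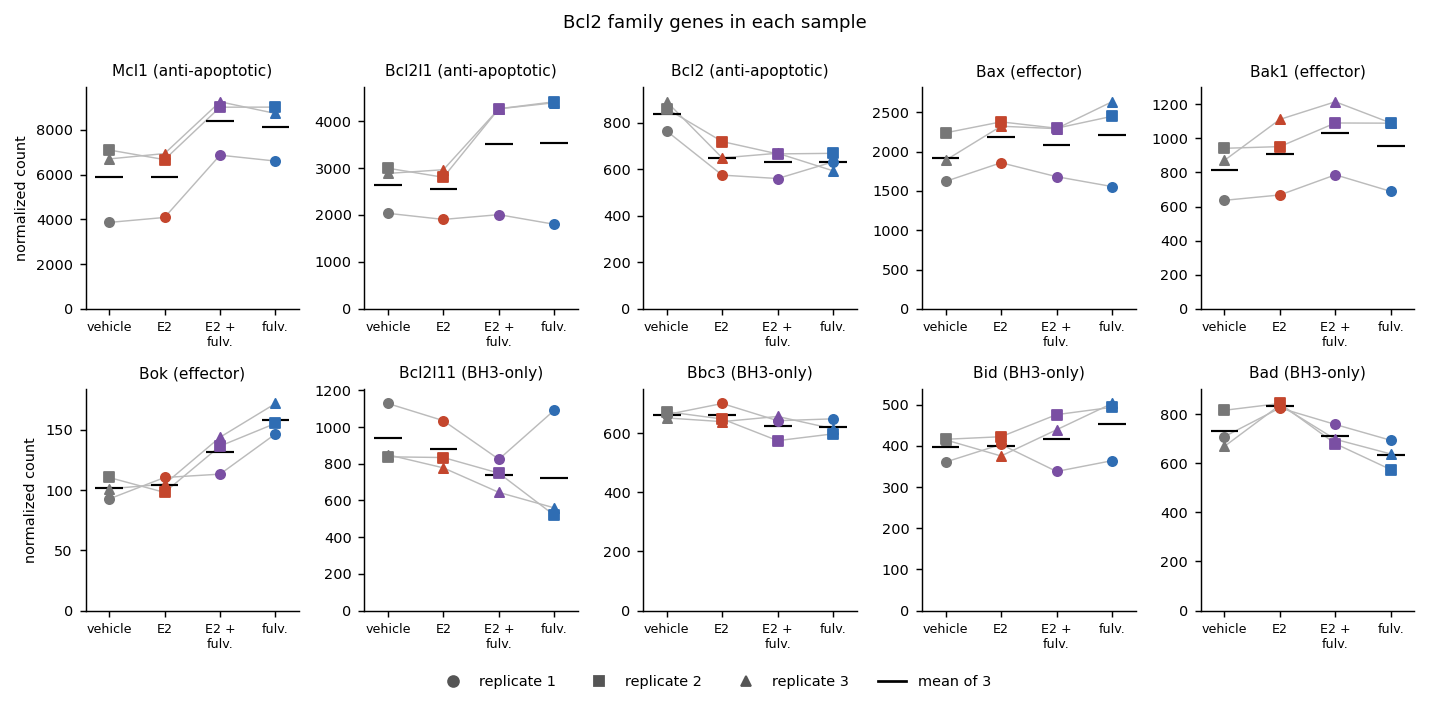
Normalized count (y axis, from 0) of each of the 10 genes in the 12 samples by group (x axis), with replicate 1 as circles, replicate 2 as squares and replicate 3 as triangles, grey lines joining the same replicate number and black bars at the mean of 3. Mcl1 is higher with fulvestrant within each replicate number, while Bcl2l1 stays between 1802 and 2036 in replicate 1 and reaches 4413 in replicate 2 with fulvestrant.

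The 250 bases before the RefSeq start sites of 5 of these genes (build GRCm38.p6) are shown because these are the genes called with fulvestrant in any comparison below. Bcl2l1 has 3 RefSeq start sites and Bcl2l11 has 2, and the window next to the annotated 5′ end of the gene is shown for each. Capitals mark the GC box GGGCGG or the forkhead motif TGTTTAC, on either strand, and each sequence is written on the strand of its gene.
Mcl1, chr3:95658471-95658720, plus strand: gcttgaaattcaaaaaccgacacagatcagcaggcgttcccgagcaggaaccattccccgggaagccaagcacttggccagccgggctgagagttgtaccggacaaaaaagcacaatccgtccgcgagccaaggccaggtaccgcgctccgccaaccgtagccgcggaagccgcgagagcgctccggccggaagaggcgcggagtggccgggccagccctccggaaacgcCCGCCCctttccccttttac
Bcl2l1, chr2:152831729-152831978, minus strand: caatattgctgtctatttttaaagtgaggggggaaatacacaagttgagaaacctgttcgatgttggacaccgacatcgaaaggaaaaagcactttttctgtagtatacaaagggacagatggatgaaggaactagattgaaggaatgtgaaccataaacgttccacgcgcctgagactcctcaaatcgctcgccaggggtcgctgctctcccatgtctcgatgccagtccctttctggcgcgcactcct
Bcl2, chr1:106714291-106714540, minus strand: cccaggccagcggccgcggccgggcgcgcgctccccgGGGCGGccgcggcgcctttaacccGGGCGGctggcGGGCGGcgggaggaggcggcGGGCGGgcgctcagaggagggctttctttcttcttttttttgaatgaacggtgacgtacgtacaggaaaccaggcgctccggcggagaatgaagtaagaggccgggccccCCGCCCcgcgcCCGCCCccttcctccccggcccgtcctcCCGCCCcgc
Bok, chr1:93685325-93685574, plus strand: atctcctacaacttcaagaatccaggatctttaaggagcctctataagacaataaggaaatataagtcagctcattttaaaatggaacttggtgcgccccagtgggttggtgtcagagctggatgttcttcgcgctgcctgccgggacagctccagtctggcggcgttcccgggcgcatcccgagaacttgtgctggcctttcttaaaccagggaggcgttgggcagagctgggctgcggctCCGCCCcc
Bcl2l11, chr2:128125788-128126037, plus strand: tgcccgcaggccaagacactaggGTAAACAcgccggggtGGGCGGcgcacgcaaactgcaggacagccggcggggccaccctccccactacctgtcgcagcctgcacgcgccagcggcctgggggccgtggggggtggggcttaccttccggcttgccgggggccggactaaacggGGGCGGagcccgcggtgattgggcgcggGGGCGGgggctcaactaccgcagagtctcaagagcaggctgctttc

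The estrogen response element GGTCANNNTGACC was in 0 of the 16 start-site windows of the 10 genes and in 0.0639% of 32851 windows of the same length over all genes. The glucocorticoid element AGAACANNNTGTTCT was in 0 of 16 and in 0.00913% of all, and the AP-1 motif TGANTCA was in 0 of 16 and in 6.75% of all. The GC box was in 11 of 16 windows and in 32.7% of all. The Bcl2l1 window shown has no capitals because it holds none of the 5 motifs searched. Nor do its other 2 windows, while the other Bcl2l11 window holds 2 GC boxes. The forkhead motif was in 1 window each of Bcl2l11 and Bbc3 and in 3.17% of all, and in the Bcl2l11 window it begins 227 bases before the start and does not overlap a GC box. A match is a string of letters and not a measured binding site.

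The comparison of E2 plus fulvestrant with E2, and that of fulvestrant with vehicle, ask what the antagonist did with and without added E2. They share no samples, but the same fit gave both their replicate terms and their spread, so they are not independent. Of the 10 genes, 1 was called with E2 present (Mcl1, higher) and 3 without it (Mcl1 and Bok higher, Bcl2 lower). Over all genes the shares called were 9.6% and 12.5%. Averaged over the presence of E2, which uses the same samples again, 4 of 10 were called, with Mcl1, Bcl2l1 and Bok higher and Bcl2l11 lower, where 15.5% of all genes were called. By adjusted p alone 7 of 10 passed, where 28.4% of all genes did, with Bcl2 and Bad lower and Bak1 higher by less than 1.2-fold added to the 4. In a fit without the replicate block, Bok in the averaged comparison was the only one of these calls that held, out of 310 genes called over the table. The median log2 fold change of the 10 genes was 0.0063 with E2 and 0.18 without it, beside 0.012 and 0.0069 over all genes.

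**Figure D2:**
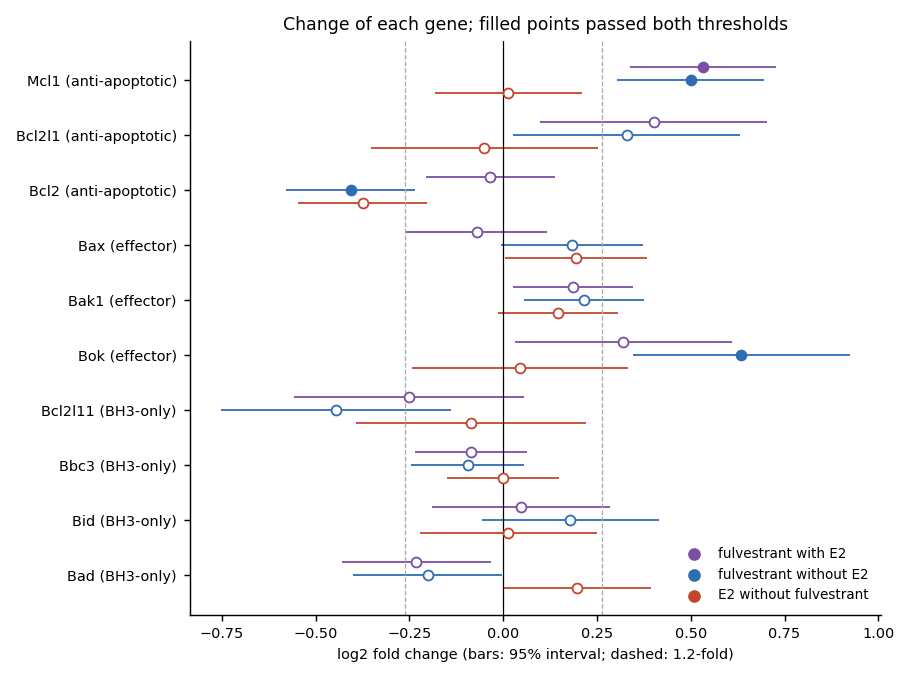
Log2 fold change (x axis) of each gene (y axis) for fulvestrant with E2, fulvestrant without E2 and E2 without fulvestrant, from the limma fit with the replicate block. Bars are 95% intervals, dashed lines mark 1.2-fold, and filled points passed both thresholds: Mcl1 in both fulvestrant comparisons, and Bcl2 and Bok without E2.

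Mcl1 encodes a short-lived protein that restrains BAK1 and binds BIM. It lies on chromosome 3 of GRCm38 (95658788 to 95663176, plus strand). It was at 3862, 7101 and 6700 normalized counts with vehicle in replicates 1 to 3, and at 6605, 9016 and 8731 with fulvestrant. With E2 it was at 4085, 6669 and 6940, and with E2 plus fulvestrant at 6868, 9011 and 9255. Within each replicate number fulvestrant was the higher sample in 6 of 6 pairs, although the groups overlapped because replicate 1 started lower. The share of all genes with 6 of 6 pairs in the same direction was not computed, here or for the genes below. The fold change was 1.45 with E2 (95% interval 1.26 to 1.66, log2 0.53, SE 0.09, limma adjusted p = 0.00348) and 1.41 without E2 (1.24 to 1.62, log2 0.50, adjusted p = 0.00407). Averaged over E2 it was 1.43 (adjusted p = 1.81e-04). Without the replicate block the log2 values were the same and the limma adjusted p was 0.776 with E2, 0.806 without E2 and 0.244 averaged. The 2 separate calls were lost when replicate 3 was left out of all groups (adjusted p = 0.0561 and 0.0602), while the averaged call was kept in each of the 15 fits that left out a sample or a replicate number.

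The size of the Mcl1 difference was not the same in all replicate numbers. It was 0.75, 0.43 and 0.42 on the log2 scale in replicates 1 to 3 with E2, and 0.77, 0.34 and 0.38 without E2. Replicate 1 had the larger difference in both comparisons.

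Bcl2l1 encodes BCL-XL, which holds back BAX, BAK1 and BH3-only proteins, and lies on chromosome 2 (152780668 to 152831728, minus strand). It was at 2036, 2997 and 2886 normalized counts with vehicle, and at 1802, 4413 and 4392 with fulvestrant. With E2 it was at 1906, 2803 and 2965, and with E2 plus fulvestrant at 2007, 4264 and 4262. In replicates 2 and 3 the 4 fulvestrant samples were all above the 4 without it, and in replicate 1 the 4 samples did not separate. The log2 difference with E2 was 0.075 in replicate 1 and 0.60 and 0.52 in replicates 2 and 3, and without E2 it was -0.18, 0.56 and 0.61. The fitted log2 fold changes were 0.40 with E2 (SE 0.14, limma adjusted p = 0.0842) and 0.33 without E2 (adjusted p = 0.13), neither called. The average was 0.37, a fold of 1.29 (95% interval 1.11 to 1.49, adjusted p = 0.0167), and dropping the replicate block took the adjusted p to 0.653. This averaged call was lost without fulvestrant replicate 2 (adjusted p = 0.0535), without replicate 2 (0.225) and without replicate 3 (0.219). With replicate 1 left out of all groups, Bcl2l1 was called both with E2 (0.56, adjusted p = 0.00011) and without it (0.58, adjusted p = 7.27e-05). It was also called with E2 when replicate 1 of vehicle (adjusted p = 0.0435), E2 (0.0485) or fulvestrant (0.0222) alone was left out, and without E2 when replicate 1 of vehicle (0.0383) or fulvestrant (0.0118) was.

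A limma term for the fulvestrant effect in replicates 2 and 3 minus that in replicate 1, chosen after the values were seen, was 0.62 for Bcl2l1 (SE 0.08, adjusted p = 5.87e-04) and -0.37 for Mcl1 (SE 0.07, adjusted p = 0.00759). These were the 2 of 10 genes called for it, where 6.87% of all genes were. Replicate 1 is a single replicate number, so these p-values measure the spread between samples and not between replicate numbers. For the other 8 genes the term lay between -0.24 (Bcl2l11, adjusted p = 0.546) and 0.35 (Bid, adjusted p = 0.123).

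**Figure D3:**
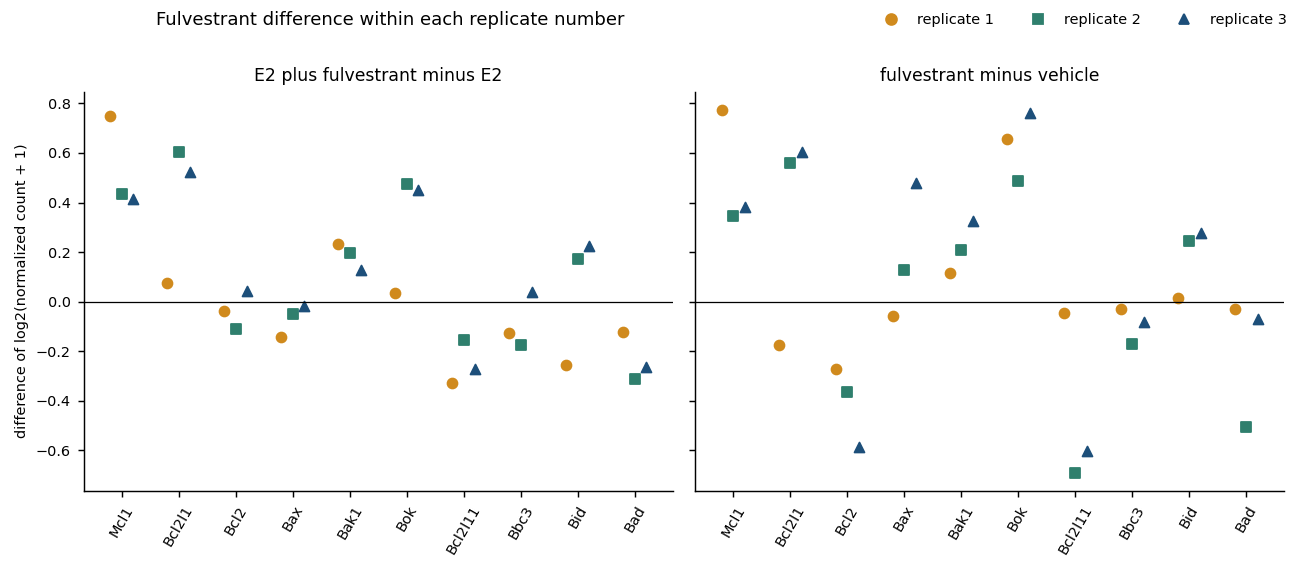
Difference of log2(normalized count + 1) (y axis) for each gene (x axis) within replicate 1 (circles), 2 (squares) and 3 (triangles), on the left for E2 plus fulvestrant minus E2 and on the right for fulvestrant minus vehicle. For Bcl2l1 replicate 1 is at 0.075 and -0.18 while replicates 2 and 3 lie between 0.52 and 0.61, and for Mcl1 replicate 1 is at 0.75 and 0.77, above the others.

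Bcl2, the founding anti-apoptotic gene of the family (chromosome 1, 106538178 to 106714274, minus strand), had its highest levels with vehicle. It was at 764, 860 and 890 normalized counts with vehicle, at 575, 719 and 649 with E2, at 560, 666 and 669 with E2 plus fulvestrant and at 632, 669 and 594 with fulvestrant. The 3 vehicle samples were above all 9 others, of which the highest was 719. Over all genes 1.09% had vehicle samples outside the range of the other 9, in either direction. Fulvestrant without E2 was 0.754-fold of vehicle (95% interval 0.67 to 0.849, log2 -0.41, SE 0.08, limma adjusted p = 0.00597), with the adjusted p at 0.227 without the replicate block, 0.0617 in a fit of those 2 groups alone, 0.0773 without replicate 2 and 0.13 without replicate 3. E2 was 0.771-fold of the same vehicle samples (log2 -0.37, unadjusted p = 5.7e-04, adjusted p = 0.213) and was not called. E2 plus fulvestrant differed from E2 by -0.035 on the log2 scale (95% interval -0.21 to 0.14). The fulvestrant effect with E2 minus that without E2 was 0.37 (SE 0.11, unadjusted p = 0.00624, adjusted p = 0.944), so a difference between them was not called.

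Among the effectors, Bok, whose protein is kept low by the proteasome, was the least abundant and had the largest fold changes with fulvestrant. It lies on chromosome 1 (93685660 to 93695764, plus strand). It was at 92.6, 110 and 101 normalized counts with vehicle, at 110, 98.1 and 105 with E2, at 113, 137 and 144 with E2 plus fulvestrant and at 147, 155 and 172 with fulvestrant. The 6 samples with fulvestrant, from 113 to 172, did not overlap the 6 without it, from 92.6 to 110, and Bok was the sole gene of the 10 for which this held, where 4.3% of all genes did not overlap in either direction. Fulvestrant without E2 raised it 1.55-fold (95% interval 1.27 to 1.90, log2 0.64, limma adjusted p = 0.00864), with the adjusted p at 0.109 without the replicate block, 0.0649 in a fit of those 2 groups alone, 0.0715 without replicate 2 and 0.157 without replicate 3. With E2 present the log2 fold change was 0.32 (SE 0.13, adjusted p = 0.141), and replicate 1 differed by 0.036 against 0.47 and 0.45 in replicates 2 and 3. Averaged over E2 Bok rose 1.39-fold (adjusted p = 0.00327, and 0.0379 without the replicate block), a call lost when replicate 3 was left out (0.0818). E2 plus fulvestrant differed from fulvestrant by -0.27 on the log2 scale, which was not called (adjusted p = 1.0).

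Bax, the effector that moves from the cytosol to mitochondria (chromosome 7, 45461697 to 45466898, minus strand), was not called in any comparison. It was at 1622, 2240 and 1891 normalized counts with vehicle and at 1556, 2450 and 2635 with fulvestrant. With E2 it was at 1859, 2380 and 2324, and with E2 plus fulvestrant at 1682, 2299 and 2293. The averaged fulvestrant change was 1.04-fold (95% interval 0.95 to 1.14). Without E2 the change was 0.18 on the log2 scale, and it was called when fulvestrant replicate 1 (adjusted p = 0.0205) or replicate 1 of all groups (0.0198) was left out. Of its exon sequence 12.2% is shared with Gm45808 on the same strand, so its level is uncertain to that extent.

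Bak1, which resides on the outer mitochondrial membrane (chromosome 17, 27019810 to 27029009, minus strand), was higher with fulvestrant in 6 of 6 pairs by 0.11 to 0.32 on the log2 scale. It was at 636, 941 and 870 normalized counts with vehicle, 668, 951 and 1111 with E2, 786, 1090 and 1214 with E2 plus fulvestrant and 689, 1089 and 1090 with fulvestrant. The averaged change was 1.15-fold (95% interval 1.06 to 1.24, limma adjusted p = 0.0136), under the 1.2-fold threshold.

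Among the BH3-only genes, Bcl2l11 had the largest fulvestrant difference. BIM, its product, binds all the main anti-apoptotic proteins and can activate BAX and BAK1. It lies on chromosome 2 (128126038 to 128162547, plus strand). It was at 1128, 838 and 849 normalized counts with vehicle, at 1035, 834 and 778 with E2, at 824, 749 and 644 with E2 plus fulvestrant and at 1092, 519 and 559 with fulvestrant. Fulvestrant was the lower sample in 6 of 6 pairs, which differed by -0.33, -0.15 and -0.27 with E2 and by -0.048, -0.69 and -0.60 without it in replicates 1 to 3. The averaged fold was 0.785 (95% interval 0.676 to 0.913, log2 -0.35, limma adjusted p = 0.0221), and the adjusted p was 0.478 without the replicate block. This call was kept in 5 of 12 fits that left out a sample. It was lost without vehicle replicate 3, E2 replicates 2 and 3, E2 plus fulvestrant replicates 1 and 3, fulvestrant replicates 2 and 3, and without replicate 2 or 3 of all groups, with adjusted p of at most 0.204. The separate log2 fold changes were -0.25 with E2 (adjusted p = 0.272) and -0.45 without E2 (adjusted p = 0.0518). The latter was called without E2 plus fulvestrant replicate 1 (adjusted p = 0.0463), without fulvestrant replicate 1 (7.6e-04), without replicate 1 of all groups (9.13e-04) and with a block of replicate 1 against 2 and 3 (0.0362).

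Bad, whose product is held by 14-3-3 proteins when phosphorylated (chromosome 19, 6941861 to 6951899, plus strand), was at 825, 843 and 836 normalized counts with E2, above each of the other 9 samples, where 1.01% of all genes had E2 samples outside the range of the others in either direction. It was at 708, 815 and 668 with vehicle, at 757, 679 and 697 with E2 plus fulvestrant and at 693, 574 and 637 with fulvestrant. Fulvestrant was lower in 6 of 6 pairs, and the averaged fold was 0.86 (95% interval 0.781 to 0.948, limma adjusted p = 0.0263), which did not pass the 1.2-fold threshold except with replicate 1 left out of all groups (log2 -0.29, adjusted p = 0.0148). E2 against vehicle was 0.20 on the log2 scale (95% interval -0.0013 to 0.40) and was not called.

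Bbc3, a p53 target (chromosome 7, 16308393 to 16318205, plus strand), had the smallest ratio of highest to lowest sample of the 10 genes, with all 12 samples between 575 and 700 normalized counts. Its averaged fulvestrant fold was 0.939 (95% interval 0.872 to 1.01). Bid, whose product caspase-8 cleaves to link death receptors to mitochondria (chromosome 6, 120891930 to 120916853, minus strand), lay between 338 and 503 normalized counts. Its averaged fold was 1.08 (95% interval 0.963 to 1.21), and with E2 present its difference was -0.26 in replicate 1 and 0.17 and 0.23 in replicates 2 and 3. Neither gene was called in any comparison.

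The E2 comparisons called 0 of the 10 genes. For E2 against vehicle 10 genes of the whole table were called by limma (0.0756%), and 1340 (10.1%) had an unadjusted p under 0.05, among them Bcl2 and Bax of the 10 family genes. For E2 plus fulvestrant against fulvestrant 0% of all genes were called and 255 (1.93%) had an unadjusted p under 0.05, of which 0 were family genes. For the interaction 0% were called and 501 (3.79%) had an unadjusted p under 0.05, among them Bcl2. The E2 and fulvestrant comparisons against vehicle share their vehicle samples.

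Groups that did not overlap were Bok (higher) and Bad (lower) for E2 plus fulvestrant against E2, where 12.5% of all genes did not overlap in either direction. For fulvestrant against vehicle they were Bok (higher), Bcl2 (lower) and Bbc3 (lower), where 11.1% of all genes did not overlap. For E2 against vehicle they were Bcl2 (lower) and Bad (higher), with 5.19% of all genes, and for E2 plus fulvestrant against fulvestrant Bok (lower), with 2.42%.

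Summed per kilobase of exon, the anti-apoptotic genes were at 1657, 2825 and 2687 with vehicle, 1673, 2641 and 2748 with E2, 2508, 3639 and 3710 with E2 plus fulvestrant and 2394, 3673 and 3577 with fulvestrant. Mcl1 made up 68.2% to 80.7% of this sum, which holds the 3 listed genes only. It leaves out Bcl2l2, which was at 394 to 491 per kilobase, and the BH3-only sum leaves out Pmaip1 and Bmf. The BH3-only sum ranged from 790 to 895 without fulvestrant and from 709 to 815 with it. The anti-apoptotic sum divided by the effector sum was 1.23, 1.51 and 1.66 with vehicle, 1.10, 1.35 and 1.38 with E2, 1.72, 1.83 and 1.82 with E2 plus fulvestrant and 1.77, 1.76 and 1.61 with fulvestrant. The ratio was higher with fulvestrant in all 3 pairs with E2 and in 2 of 3 without it. The ratio of Mcl1 to Bcl2l11 per kilobase went from 8.04, 19.9 and 18.5 with vehicle to 14.2, 40.8 and 36.7 with fulvestrant, and from 9.27, 18.8 and 21.0 with E2 to 19.6, 28.3 and 33.8 with E2 plus fulvestrant. Mcl1 was called higher and Bcl2l11 lower in the averaged comparison, so a rise of their ratio restates those calls. The ratio of Bax to Bcl2 per kilobase was 12.3, 15.1 and 12.3 with vehicle and higher in each replicate number with fulvestrant, at 14.3, 21.3 and 25.8. It was 18.8, 19.2 and 20.8 with E2 and 17.4, 20.0 and 19.9 with E2 plus fulvestrant. These sums and ratios are descriptions of RNA, and no test was run on them.

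**Figure D4:**
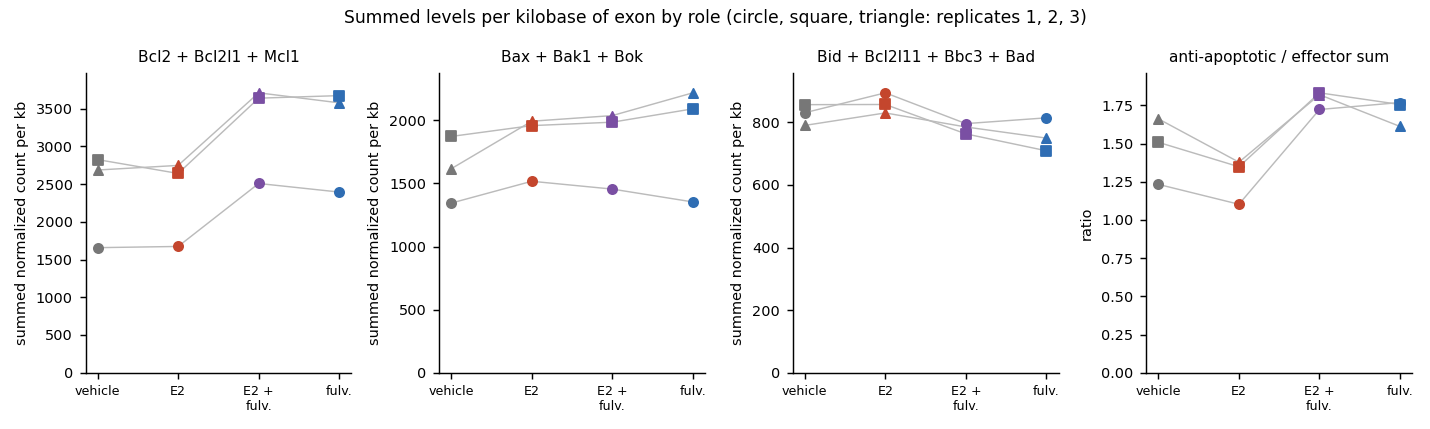
Summed normalized count per kilobase of exon (y axes, from 0) for the 3 anti-apoptotic, 3 effector and 4 BH3-only genes, and the ratio of the first to the second, by group (x axes), with circles, squares and triangles for replicates 1, 2 and 3. The anti-apoptotic sum is higher with fulvestrant within each replicate number, and the BH3-only sum has the narrowest range, from 709 to 895.

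Other genes of the pathway were counted from lists of other family members and their partners, 74 genes in all, of which 7 (9.46%) were called for fulvestrant with E2 and 10 (13.5%) without it, close to the 9.6% and 12.5% of all genes. Without the replicate block 0 and 1 (Fas) of the 74 were called. An unadjusted p under 0.05 was found for 27.3% and 30.5% of all genes in these comparisons. Of the other anti-apoptotic genes 1 of 5 was in the table, Bcl2l2 (which encodes BCL-W), and it was higher by 0.20 with E2 (limma adjusted p = 0.0303) and by 0.13 without it, under the 1.2-fold threshold. Of its exon sequence 13.3% is shared with Gm20521. Of the other BH3-only genes 2 of 4 were present, Pmaip1 (which encodes NOXA, a binder of MCL1) and Bmf, and neither was called. Pmaip1 was at 305 and 258 normalized counts in replicate 1 without fulvestrant and at 161 and 156 with it, while replicates 2 and 3 lay between 321 and 344 without it and between 360 and 407 with it. Of 7 other Bcl2-like and BNIP genes 1 was called in each comparison, Bnip3, a gene of mitochondrial autophagy that rose by 0.29 with E2 and 0.34 without it.

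Of 11 apoptosome and caspase genes 0 were called with E2 and 1 without it, Casp8, the initiator caspase of death receptors, which rose by 0.26 on the log2 scale. Of 9 mitochondrial release factors and inhibitors of apoptosis proteins 0 were called in either comparison, and 1 and 0 had an unadjusted p under 0.05. Of 9 death receptor genes 2 were called in each comparison. Tnfrsf12a, the receptor for TWEAK, rose by 0.96 with E2 and 1.03 without it. Fas, a receptor that triggers apoptosis, fell by 0.59 without E2 (limma adjusted p = 9.73e-04) and had -0.24 with E2 (0.0768). Cflar, which encodes the caspase-8 inhibitor FLIP, rose by 0.33 with E2 (adjusted p = 0.0423) and had 0.30 without it (0.0507), with an effect larger by 0.36 in replicates 2 and 3 than in replicate 1 (adjusted p = 0.0234).

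Of 14 genes of p53 and its targets 1 was called with E2 and 2 without it. Mdm2, the ubiquitin ligase of p53, rose by 0.35 and 0.31, and Gadd45a rose by 0.30 without E2. Of 9 transcription regulators listed for Bcl2l11 and Bbc3, 3 were called in each comparison. Jun, an AP-1 subunit, rose by 0.81 and 0.93, Tsc22d3, a glucocorticoid-induced gene that encodes GILZ, by 0.90 and 0.90, and Nr3c1, the glucocorticoid receptor, fell by 0.37 and 0.36. All 3 were called for a fulvestrant effect that differed between replicates 2 and 3 and replicate 1, by -0.91 for Jun, -1.01 for Tsc22d3 and 0.37 for Nr3c1. Tsc22d3 went from 2950 with E2 to 8608 normalized counts with E2 plus fulvestrant in replicate 1, from 1336 to 2097 in replicate 2 and from 1359 to 1924 in replicate 3. Of 6 genes listed for protein turnover around MCL1 (Huwe1, Fbxw7, Usp9x, Cul5, Ube2q1 and the Polycomb gene Bmi1) 0 were called in either comparison, and 1 and 0 had an unadjusted p under 0.05. Of 6 genes of 14-3-3 proteins 0 were called with E2 and 1 without it, Ywhag, which rose by 0.32.

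The summed level of the 7 fibroblast markers was lower with fulvestrant. It was 318040 to 409170 with vehicle, 350560 to 439640 with E2, 254240 to 311910 with E2 plus fulvestrant and 238930 to 338890 with fulvestrant, and 4 of the 7 were called lower in the averaged comparison, where 15.5% of all genes were called in either direction. Without the replicate block 0 of the 7 were called. Col1a2 was the largest part of the sum, at 243523, 118816 and 118385 normalized counts with vehicle in replicates 1 to 3. Replicate 1 stood apart in single markers too. In the same vehicle samples Col1a1 was at 95391, 46852 and 46627, Dcn at 32211, 107287 and 102207 and Thy1 at 78.3, 562 and 524. The summed immune markers were 233 to 487 with vehicle, 168 to 447 with E2, 222 to 321 with E2 plus fulvestrant and 266 to 285 with fulvestrant. Ptprc, Adgre1 and Csf1r were not in the table. Members of this list had opposite directions in the averaged comparison, with log2 values of 0.46 for Cd14 and -0.72 for Lyz2. For Lyz2 most of this lay in replicate 1, which went from 340 to 105 normalized counts without E2 and from 309 to 130 with it, while replicates 2 and 3 lay between 62.4 and 97.4 without fulvestrant and between 51.3 and 71.9 with it. The endothelial marker Tek was at 58.5 to 277, 65.1 to 166, 83.7 to 259 and 70.6 to 193, and the summed mural markers were 115 to 314, 102 to 235, 108 to 183 and 81.1 to 176. Of the mural pair Myh11 had 0.92 and Notch3 -0.58 in the averaged comparison. With the block 2 of the 3 immune genes were called in the averaged comparison, 1 higher and 1 lower. Of the 2 mural genes 1 was called higher and 1 lower, where 15.5% of all genes were called. Without the replicate block none of Cd14, Lyz2, Myh11 and Notch3 was called (limma adjusted p of 0.126 to 0.600). Their part in the family's differences was not tested, and in bulk RNA fewer cells of a type and less RNA per cell cannot be told apart.

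The genes whose pattern over the 12 samples was most like that of each member called in the averaged comparison were found by Pearson's r after centring on the replicate number. For Mcl1 they were Ace (0.995), Glul (0.993) and Selenop (0.993), and for Bcl2l1 Dnaja4 (0.983), Zfand2a (0.978) and Gbe1 (0.977). For Bok they were Ier3 (0.966), Csrnp1 (0.957) and Nip7 (0.957), and for Bcl2l11 Arsa (0.960), Spg11 (0.960) and Pcdhb21 (0.948). The points share their libraries, and these were the highest values out of 13233 genes.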

How the data were processed

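The RNA-Seq part of the study was used, with its 12 samples placed in 4 groups of 3 by the submitters' labels. According to the paper's methods and the labels, the authors trimmed reads (Trimmomatic 0.39), removed ribosomal reads, aligned to mm10 (STAR 2.5.2), counted by gene and strand (HTSeq 0.13.5), removed counts under 10 and normalized by the median of ratios (DESeq2 1.37). The normalized counts they deposited are a signal and not raw reads. The paper names batch adjustment tools without saying what the batches were.

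Log2(value + 1) was fitted for all 13233 genes and 12 samples in R 4.3.3 by limma 3.58.1 with the replicate number as a block and moderated variances that follow a trend (eBayes). The numbers come from the labels, and all 18 same-numbered pairs of samples had deviations correlated at 0.631 or more. Differently numbered pairs were not examined. A block of replicate 1 against 2 and 3 called 1440 genes for fulvestrant with E2 and 1800 without it. With the main block these were 1270 and 1648. The Benjamini-Hochberg adjustment covered the whole table, and calls needed an adjusted p under 0.05 and a fold over 1.2. Fold changes on the log2(value + 1) scale are understated for low genes. The fit was tested on simulated data. Python 3.11.15 with pandas 2.3.3 and matplotlib 3.10.9 did the rest.

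Positions and exon lengths come from GENCODE M21 (GRCm38, the same build as mm10), and promoter sequence from RefSeq (GRCm38.p6), which had an entry for each of the 10 genes. Named were all 10 genes, up to 5 genes per pathway list that were called for fulvestrant with or without E2, and the 3 genes most like each member called in the averaged comparison. Pmaip1, Bmf and Bcl2l2 were named after their values were seen. A further marker list is not reported here. The members, lists and tests were chosen with earlier results of these data known. The alternatives were the replicate block, the pseudocount, a filter on low values, the variance trend, the scaling, the fold threshold, fits of 2 groups alone, and leaving out samples or replicate numbers.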

Additional observations from a re-analysis of the deposited data

Results flagged for a closer look

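In 2 of the 10 genes the fulvestrant effect differed between replicates 2 and 3 and replicate 1 by a limma test added after the values were seen. For Bcl2l1 the log2 effect was larger in replicates 2 and 3 by 0.6236 (adjusted p = 5.87e-04), and for Mcl1 the difference was -0.3678 (adjusted p = 0.00759), that is, smaller in replicates 2 and 3. Over all genes 909 of 13233 were called for this difference, 448 higher and 461 lower. The split followed from the same values, and replicate 1 is a single replicate number, so the p-values do not show how replicate numbers differ in general. What the replicate numbers stand for is not given in the labels, and it was not tested.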

How the results depend on the processing

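Over 60 results (10 genes in 6 comparisons) and 1300 refits, 1193 kept direction and call, 28 lost a call, 14 gained a call and 65 changed sign. Without the replicate block 69 genes were called for fulvestrant with E2, 72 for fulvestrant without E2, 1 for E2 without fulvestrant and 310 for fulvestrant averaged over E2, against 1270, 1648, 10 and 2054 with it, and of the 10 family genes Bok in the average was the one call left, where 955, 1012, 175 and 1792 genes had an unadjusted limma p under 0.05. The adjusted p without the block stands beside each of the family's calls. Fits of 2 groups alone called 692 genes for fulvestrant without E2 and 57 for E2 without fulvestrant. For the latter a block of replicate 1 against 2 and 3 called 17 and no variance trend 3. By adjusted p alone the averaged comparison called 3752. Leaving out samples or replicate numbers gave 316 to 1611 genes for fulvestrant with E2, 399 to 2312 without it, 0 to 59 for E2 without fulvestrant, 0 to 4 for E2 with fulvestrant, 1335 to 2332 for the average and 0 to 11 for the interaction. The low ends for both fulvestrant comparisons came without replicate 3 and the high ends without replicate 1. The cause was not tested.

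Signs changed only for log2 values that were not called. With samples left out, fulvestrant with E2 gave -0.051 to 0.20 for Bid and -0.076 to 0.0096 for Bcl2, and the average gave -0.031 to 0.13 for Bax. E2 without fulvestrant gave -0.041 to 0.044 for Bbc3, -0.11 to 0.11 for Bid, -0.17 to 0.10 for Bcl2l1, -0.068 to 0.15 for Bok and -0.0904 to 0.0908 for Mcl1, which was at -0.028 with quantile normalization. E2 with fulvestrant gave -0.044 to 0.057 for Bbc3, -0.17 to 0.045 for Bax, -0.16 to 0.12 for Bcl2l1, -0.10 to 0.37 for Bcl2l11, -0.038 to 0.12 for Mcl1 and -0.089 to 0.084 for Bcl2. The interaction gave -0.048 to 0.0599 for Bbc3, -0.11 to 0.20 for Bcl2l1, -0.14 to 0.052 for Bad, -0.052 to 0.14 for Mcl1 and -0.10 to 0.054 for Bak1. Planned count tests on reads recovered from the normalized counts were not run. Genes under 10 reads are outside this table, so low family genes were not analysed here.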
